A study of Homo sapiens with 6 samples.

Results

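The 10 genes described here are IER2, IER3 and IER5, ZFP36, ZFP36L1 and ZFP36L2, BTG1 and BTG2, and GADD45A and GADD45B. They were chosen by gene symbol as families whose transcripts are short-lived and quickly induced, and all 10 were among the 53712 lines of the count table and the 16873 genes tested. RNA came from H9, an established human embryonic stem cell line grown in PXGL, a medium for naive pluripotency. One group of 3 libraries (ASO-L1) had received 25 nM of an antisense oligonucleotide against LINE-1, the autonomous retrotransposon of the human genome, and the other 3 libraries (SO-L1, the control) 25 nM of a sense oligonucleotide. Both groups were also given trans-ISRIB at 0.7 uM, an inhibitor of integrated stress signalling, with emricasan, which blocks caspases, at 5 uM and Y-27632, which blocks ROCK, at 10 uM. All 3 were withdrawn after 24 hours, and unsorted cells were harvested at 48 hours, 200 ng of RNA per sample going into directional poly(A) libraries. The comparison asks which transcripts differed between antisense and sense oligonucleotide.

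Short-lived transcripts of this kind are made in a burst when a cell is stimulated and are removed soon after. Many carry AU-rich elements in the 3′ untranslated region (3′ UTR), and ZFP36, ZFP36L1 and ZFP36L2 are zinc finger proteins that bind such elements and bring in the CCR4-NOT complex, which shortens the poly(A) tail. BTG1 and BTG2 are antiproliferative proteins that bind the CCR4-NOT deadenylase and stimulate it. The IER genes belong to the immediate-early response: IER3 modulates survival and ERK signalling, IER5 acts with the phosphatase PP2A on the heat shock factor HSF1, and IER2 is a nuclear protein of the same early response. GADD45A and GADD45B are small stress proteins that bind the kinase MAP3K4 and cell cycle proteins.

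The AU-rich stretches of the members are shown because many short-lived transcripts carry such elements. Each line gives the 30 bases of the 3′ UTR that hold the most ATTTA pentamers, read from GENCODE release 29 transcripts in DNA letters, 5′ to 3′, with each ATTTA in capitals.
IER3: taattaatATTTAtatgtATTTAtgtacgt
IER5: ttcctttATTTATTTATTTATTTAattata
ZFP36: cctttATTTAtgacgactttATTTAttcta
ZFP36L1: cttATTTAacttatcaaaacgtATTTAttg
ZFP36L2: tgaaaactATTTAacttATTTAttatcttg
BTG1: gaatagatttcttATTTAtctgaaggtata
BTG2: taaatgaagagctATTTAtatatattattt
GADD45A: gacatgaaaagttATTTAtgctataaattt
IER5 held 4 overlapping pentamers in 1 run, and ZFP36 itself carried them, as did both of its paralogs. No ATTTA was present in the 3′ UTR taken for IER2 or GADD45B. Over the whole 3′ UTR the pentamer occurred 6 times in the 737 bases of IER3 (8.14 per kb), 5 times in the 713 bases of ZFP36 (7.01 per kb) and 10 times in the 3013 bases of IER5 (3.32 per kb). ZFP36L1 held 8 in 1871 bases, ZFP36L2 5 in 1917 and GADD45A 2 in 564. The BTG genes were the sparsest of those with any, at 5 in 3802 bases for BTG1 and 2 in 2164 for BTG2. These are 1.32 and 0.924 per kb, below the median of all genes (1.49 per kb), as are IER2 and GADD45B at 0. ATTTA itself was found in 8 of the 10 members and in 67.0% of 18484 genes. The longer TATTTAT was found in 8 of the 10 members and in 30.8% of 18484 genes, and the nonamer TTATTTATT in 4 members (IER5 and the ZFP36 genes) and in 8.13% of genes. Both longer strings contain ATTTA, searches used the transcript strand, and the members' 3′ UTRs were longer than those of all genes (median 1460 against 1017 bases), so these shares are a description and not an enrichment test.

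**Figure D1:**
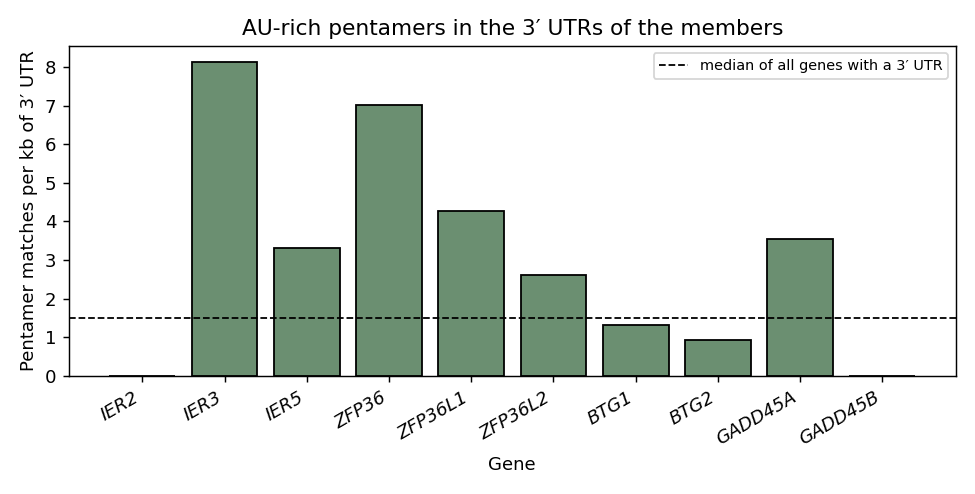
Matches of ATTTA per kilobase of 3′ UTR (y axis) for each member (x axis), 1 GENCODE transcript a gene. IER3 and ZFP36 stand highest at 8.14 and 7.01 per kb, IER2 and GADD45B are at 0, and the dashed line is the median of 18484 genes, 1.49 per kb.

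Promoter sequence was available in the RefSeq table (GRCh38.p14) for 7 of the 10 members, not for IER3, ZFP36L2 or GADD45A. The 120 bases before the start site are shown for 4 members that share a TATA-like TATAA close to the start and for BTG2, which does not. IER2 and ZFP36L1 lack it too and are not printed, although their ASO-L1 libraries all lay above their SO-L1 libraries. A link of TATAA to the direction of change was not tested. Capitals mark TATAA and, on either strand, the CCAAT box and TGACG, part of the cyclic AMP response element.
IER5, chr1:181088580-181088699, plus strand: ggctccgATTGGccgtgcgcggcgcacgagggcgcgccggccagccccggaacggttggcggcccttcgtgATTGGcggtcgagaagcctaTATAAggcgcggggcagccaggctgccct
ZFP36, chr19:39406727-39406846, plus strand: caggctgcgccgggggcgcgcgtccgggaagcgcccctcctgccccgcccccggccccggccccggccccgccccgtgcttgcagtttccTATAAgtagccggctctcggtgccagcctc
BTG1, chr12:92145847-92145966, minus strand: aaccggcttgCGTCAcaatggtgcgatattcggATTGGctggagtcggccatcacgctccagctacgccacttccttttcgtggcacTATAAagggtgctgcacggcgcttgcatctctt
GADD45B, chr19:2476007-2476126, plus strand: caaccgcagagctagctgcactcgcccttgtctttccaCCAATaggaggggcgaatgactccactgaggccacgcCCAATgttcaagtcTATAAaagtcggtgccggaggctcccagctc
BTG2, chr1:203305399-203305518, plus strand: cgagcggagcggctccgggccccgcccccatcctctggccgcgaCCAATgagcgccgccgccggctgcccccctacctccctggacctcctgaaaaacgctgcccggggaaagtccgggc
TATAA within 40 to 16 bases before the start, on the gene's strand, was held by these 4 members and by 3.91% of 35116 RefSeq promoters. In the whole 300-base window, searched on both strands, CCAAT was held by 34.6% of promoters and TGACG by 24.6%. The full TGACGTCA was found in the second of the 2 listed promoters of ZFP36L1 (1.85% of promoters). The CArG box, the binding motif of serum response factor, was matched in none of the 8 windows listed for members, against 1.29% of all windows. A match is a string of letters and not a shown binding site, and the 3 members without a listed promoter were not searched.

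After the antisense oligonucleotide 9 members were higher in all 3 ASO-L1 libraries than in any SO-L1 library, and BTG2 was lower in all 3. By the edgeR quasi-likelihood test, Benjamini-Hochberg adjusted over all genes with a call at an adjusted p under 0.05, 6 rose (IER2, IER3, ZFP36, ZFP36L2, BTG1 and GADD45B), BTG2 fell, and IER5, ZFP36L1 and GADD45A did not pass. The share of all tested genes called was 33.7%, with 18.0% called higher and 15.7% lower, the 2 groups were fully separate for 50.9% of tested genes, and 25.8% had all ASO-L1 libraries above all SO-L1 libraries, so both counts stand against a high background. The members' median log2 fold change was 0.87, against -0.01 over all tested genes, whose quartiles were -0.26 and 0.27. Summed over the members, the share of all counts was 0.0465% to 0.0636% in SO-L1 and 0.0753% to 0.136% in ASO-L1. Levels are given as CPM, the count scaled to a fixed library size after TMM normalisation. In bulk RNA, more cells that express a gene and more RNA per cell cannot be told apart.

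**Figure D2:**
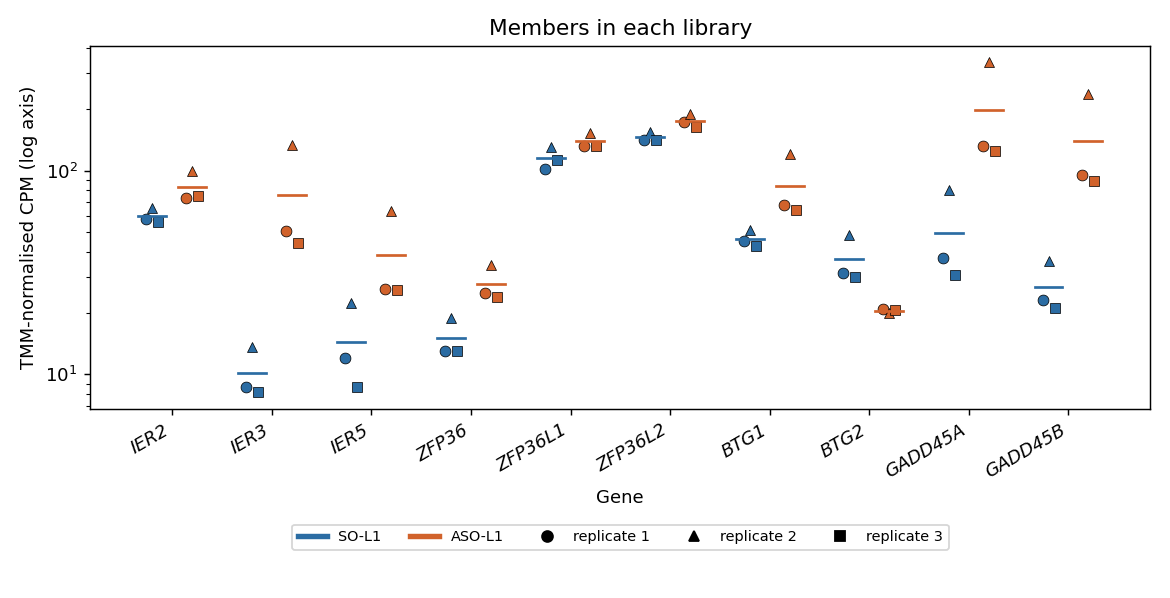
TMM-normalised CPM on a log axis (y) of each member (x) in every library, blue for SO-L1 and orange for ASO-L1, with the symbol giving the replicate number and a bar at the group mean. Orange points lie above blue points for 9 genes and below them for BTG2, and replicate 2 is the highest SO-L1 library for all 10 genes.

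The number of members called higher depended on which libraries entered. Omitting control library 1 left 3 (10.1% of all genes called higher), omitting control library 3 left 2 (9.41%), and omitting control library 2 gave 9 (16.5%), the library number being the replicate number and control meaning SO-L1. With the replicate number as a block 9 were called higher and 1 lower, in a fit that called 45.7% of all genes (23.3% higher). A test against a 1.2-fold change called 3 higher (7.47% of all genes). Dropping pair 1 (library 1 of each group) left 2 (4.45% of all genes called higher), dropping pair 2 gave 9 (21.6%) and dropping pair 3 left 2 (9.64%), so the share of all genes moved with the members' count between these pairs.

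Replicate 2 stood apart in both groups. Its SO-L1 library was the highest of the control group for all 10 members, while for all tested genes that share was 41.0%. Its ASO-L1 library was the highest of its group for 9 members, against 41.7% of tested genes, and for BTG2 it was the lowest. The control library of replicate 2 therefore held more of the members than its neighbours, and the ASO-L1 library of the same number held more again. Within each replicate number 9 members were higher in ASO-L1. This follows from the full separation of their groups, which 25.8% of tested genes showed in that direction, and adds nothing to it.

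IER3, the survival and ERK modulator, had the largest change of the members. Its SO-L1 libraries 1 to 3 held 8.67, 13.7 and 8.19 CPM and its ASO-L1 libraries 50.4, 133 and 44.0 CPM. The lowest ASO-L1 library was 3.21 times the highest control library, so the groups stood well apart, with ASO-L1 replicate 2 the furthest. The fold change was 7.46 (log2 2.90 ± 0.55 SE, edgeR adjusted p = 0.0157), larger than that of 99.7% of tested genes. With ASO-L1 library 2 omitted it was 4.69 (log2 2.23, adjusted p = 7.79e-04). IER3 was not called with pair 3 dropped (adjusted p = 0.112) or with low counts left unfiltered (0.0515).

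IER5, which works with PP2A to activate HSF1, was at 12.1, 22.5 and 8.71 CPM in SO-L1 and 26.3, 63.0 and 26.0 CPM in ASO-L1. The groups did not overlap, but ASO-L1 libraries 1 and 3 lay close to SO-L1 replicate 2. The log2 fold change was 1.42 ± 0.54 and the adjusted p from edgeR 0.100. With the replicate block it was called higher (7.37e-09), as it was with control library 2 omitted (0.0217, log2 1.87), with pair 2 dropped (1.96e-12), by DESeq2 (0.0460) and by limma-voom (0.0201), 5 of 17 alternatives in all. With ASO-L1 library 2 omitted its log2 fold change was 0.88 (0.261), and with pair 2 dropped it was 1.33.

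IER2 changed less. It had 57.6, 65.8 and 56.1 CPM in SO-L1 and 73.1, 99.9 and 74.8 CPM in ASO-L1, a log2 fold change of 0.46 ± 0.12 (edgeR adjusted p = 0.0168). All ASO-L1 libraries were above the control libraries, by 1.11 times at the closest. IER2 was not called with control library 1 (0.0730) or 3 (0.0699) omitted, with pair 1 dropped (0.0737) or against a 1.2-fold change (0.110). Within libraries the count of IER3 relative to IER2 went from 0.151, 0.208 and 0.146 in SO-L1 to 0.689, 1.33 and 0.588 in ASO-L1, and that of IER5 to IER2 from 0.210, 0.342 and 0.155 to 0.360, 0.630 and 0.348. The ratios of counts within a library do not depend on scaling between libraries, and both were higher in all ASO-L1 libraries.

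Of the AU-rich element binding proteins ZFP36, also called tristetraprolin, had the larger change. It was at 13.0, 19.0 and 13.1 CPM in SO-L1 and 25.0, 34.4 and 24.0 CPM in ASO-L1, with no overlap. The log2 fold change was 0.89 ± 0.18 (1.85-fold, edgeR adjusted p = 0.00786), and per replicate number the log2 difference was 0.93, 0.85 and 0.87. The 3 differences were thus close to each other although the level in replicate 2 was higher in both groups. ZFP36 was not called with pair 1 dropped (0.0596).

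ZFP36L1 and ZFP36L2, the more abundant paralogs, differed by 1.21-fold each. ZFP36L2 had 141, 155 and 141 CPM in SO-L1 and 173, 190 and 164 CPM in ASO-L1 (log2 0.27 ± 0.07, edgeR adjusted p = 0.0173). ZFP36L1 had 102, 131 and 112 CPM in SO-L1 and 132, 153 and 132 CPM in ASO-L1 (log2 0.27 ± 0.10, adjusted p = 0.0512). ZFP36L1 thus missed the threshold, and its lowest ASO-L1 library was 1.01 times its highest control library. It was called with the replicate block (0.00135), with control library 2 omitted (0.0166), with pair 2 dropped (1.85e-05), unfiltered (0.00796), with a CPM above 1 in 3 libraries (0.0494), by DESeq2 (0.0413) and by limma-voom (0.0498), 7 of 17 alternatives in all. ZFP36L2 was not called with control library 1 (0.0751) or 3 (0.0802) omitted, with pair 1 (0.136) or 3 (0.0735) dropped or against a 1.2-fold change (0.515). The count of ZFP36 relative to ZFP36L1 went from 0.127, 0.145 and 0.117 to 0.189, 0.225 and 0.182, and that relative to ZFP36L2 from 0.0925, 0.123 and 0.0928 to 0.144, 0.181 and 0.146.

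BTG1 and BTG2 moved in opposite directions. BTG1 had 44.9, 50.8 and 42.8 CPM in SO-L1 and 68.0, 120 and 63.7 CPM in ASO-L1, a log2 fold change of 0.86 ± 0.25 (1.82-fold, edgeR adjusted p = 0.0405). BTG2 had 31.3, 48.5 and 30.1 CPM in SO-L1 and 21.0, 19.9 and 20.8 CPM in ASO-L1, a log2 fold change of -0.83 ± 0.17 (adjusted p = 0.00778). Neither gene's groups overlapped, and the ASO-L1 libraries of BTG2 lay close together (SD 0.563 CPM) while its control libraries varied more (SD 10.3 CPM), with replicate 2 the highest.
In counts of the same library BTG1 exceeded BTG2 by 1.43, 1.05 and 1.42 times in SO-L1 and by 3.24, 6.03 and 3.07 times in ASO-L1. The mean log2 ratio rose by 1.60 and the ratios of the groups did not overlap, the greatest ratio being that of ASO-L1 replicate 2. BTG1 was not called with control library 1 (0.0592) or 3 (0.117) omitted, with pair 1 (0.0631) or 3 (0.0741) dropped, unfiltered (0.186) or against a 1.2-fold change (0.104). BTG2 was not called with ASO-L1 library 2 omitted (log2 -0.80, 0.0681).

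The stress proteins GADD45A and GADD45B had fitted fold changes of 4.02 and 5.25, and both rest in part on ASO-L1 library 2. With that library omitted they were 2.60 (log2 1.38, edgeR adjusted p = 0.164) and 3.46 (log2 1.79, 0.00883). GADD45B went from 23.3, 35.9 and 21.2 CPM in SO-L1 to 95.3, 236 and 89.1 CPM in ASO-L1, a log2 fold change of 2.39 ± 0.49 (edgeR adjusted p = 0.0198). The lowest ASO-L1 library was 2.48 times the highest control library. GADD45A had 37.2, 80.5 and 30.8 CPM in SO-L1 and 132, 339 and 125 CPM in ASO-L1, a log2 fold change of 2.01 ± 0.60 (adjusted p = 0.0586). Its libraries did not overlap either, but it missed the threshold, with SO-L1 replicate 2 well above the other control libraries and ASO-L1 replicate 2 well above the other ASO-L1 libraries. Per replicate number its log2 difference was 1.82, 2.07 and 2.01, and it was called with the replicate block (4.70e-12). GADD45A was also called with control library 2 omitted (0.0120, log2 2.54), with pair 2 dropped (5.98e-22), with a CPM above 1 in 3 libraries (0.0357), by DESeq2 (0.00739) and by limma-voom (0.00660), 6 of 17 alternatives in all. GADD45B was not called with control library 3 omitted (0.0563), with pair 3 dropped (0.133) or unfiltered (0.0640). GADD45A relative to GADD45B was 1.60, 2.24 and 1.45 in SO-L1 and 1.38, 1.43 and 1.40 in ASO-L1, so this ratio was lower in all ASO-L1 libraries, with a change in mean log2 ratio of -0.30.

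For the 6 ratios between related members given here, an exact two-sided permutation test over the 3 against 3 libraries gave p = 0.10 for each, and 0.10 after Benjamini-Hochberg adjustment over the 6. This is the smallest p the design allows, so the test cannot call a ratio changed, and each ratio is given as its values.

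**Figure D3:**
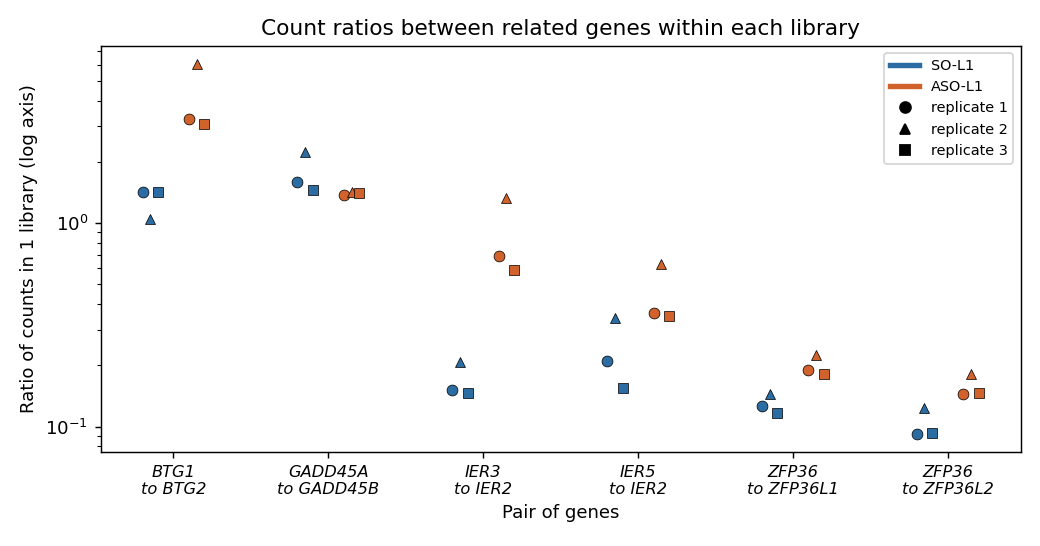
Ratio of the counts of 2 related genes in the same library, on a log axis (y), for 6 pairs (x). Blue is SO-L1, orange is ASO-L1 and the symbol is the replicate number, and the groups do not overlap for any of the 6 pairs, with GADD45A to GADD45B the pair that is lower in ASO-L1.

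Levels of different genes were compared per kilobase of exon, with lengths from GENCODE release 29, which may differ from the annotation used for counting. In SO-L1 ZFP36L2 had the highest level of the members, at 39.5 ± 2.10 CPM per kb (SD, n = 3). GADD45A (23.9 ± 13.0), ZFP36L1 (22.3 ± 2.79) and IER2 (19.5 ± 1.69) followed, and these 3 levels differed by less than the spread of GADD45A. BTG2 (13.3 ± 3.74), GADD45B (12.5 ± 3.72), BTG1 (9.52 ± 0.849), IER3 (7.52 ± 2.24) and ZFP36 (7.46 ± 1.71) came next, no neighbours among these 5 differing by more than the larger of their SDs. IER5 was lowest, at 3.44 ± 1.71 CPM per kb.

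In ASO-L1 the order of these levels was different. GADD45A (95.7 ± 59.0 CPM per kb), GADD45B (65.5 ± 39.0) and IER3 (55.8 ± 36.4) had the highest means, ahead of ZFP36L2 (47.6 ± 3.65). ASO-L1 replicate 2 was the highest library for each of these genes, and with such spreads the means alone do not rank them. Within the ASO-L1 libraries the count of GADD45A was 1.38, 1.43 and 1.40 times that of GADD45B, on exons of similar length (2069 and 2138 bases). IER2 (26.9 ± 4.88) and ZFP36L1 (26.9 ± 2.34) were level. BTG1 (17.3 ± 6.47), ZFP36 (13.8 ± 2.87) and IER5 (9.17 ± 5.06) followed, with BTG1 more than 1 SD below IER2 and ZFP36L1. Neighbours among BTG1, ZFP36 and IER5 differed by less than the larger of their SDs. BTG2 had the lowest mean, at 7.47 ± 0.204 CPM per kb, within the spread of IER5. The order of BTG2 and IER5 rests on ASO-L1 replicate 2, where IER5 had 63.0 CPM against 26.3 and 26.0 CPM in replicates 1 and 3.

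Paralogs of the members outside the 10 were mostly higher. Of 6 in the table, 5 had enough counts to be tested, and 4 rose and none fell, beside 18.0% of all genes called higher. IER5L, a close relative of IER5, went from 4.44 ± 1.41 to 34.9 ± 23.1 CPM (log2 2.98 ± 0.57, edgeR adjusted p = 0.0153), and with ASO-L1 library 2 omitted its log2 fold change was 2.30 (5.39e-05). The BTG family members BTG3 (log2 0.66 ± 0.14, 0.00898), TOB1 (0.77 ± 0.23, 0.0448) and TOB2 (0.24 ± 0.07, 0.0309) rose too. GADD45G was at 23.8, 23.9 and 22.6 CPM in SO-L1 and 21.6, 48.9 and 23.3 CPM in ASO-L1 (0.41 ± 0.32, 0.360). Its positive value rests on ASO-L1 library 2, without which it was -0.06 (0.640). BTG2 was therefore the single gene called lower among the 15 tested genes of these families. The paralogs called numbered 2 once control library 1 or 3 was omitted, beside 10.1% and 9.41% of all genes called higher. TOB1 then missed the threshold (0.0724 and 0.123), as it did with ASO-L1 library 2 omitted (0.0647), TOB2 missed it too (0.120 and 0.0962) and also with upper-quartile scaling (0.0523), and IER5L missed it unfiltered (0.0540).

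**Figure D4:**
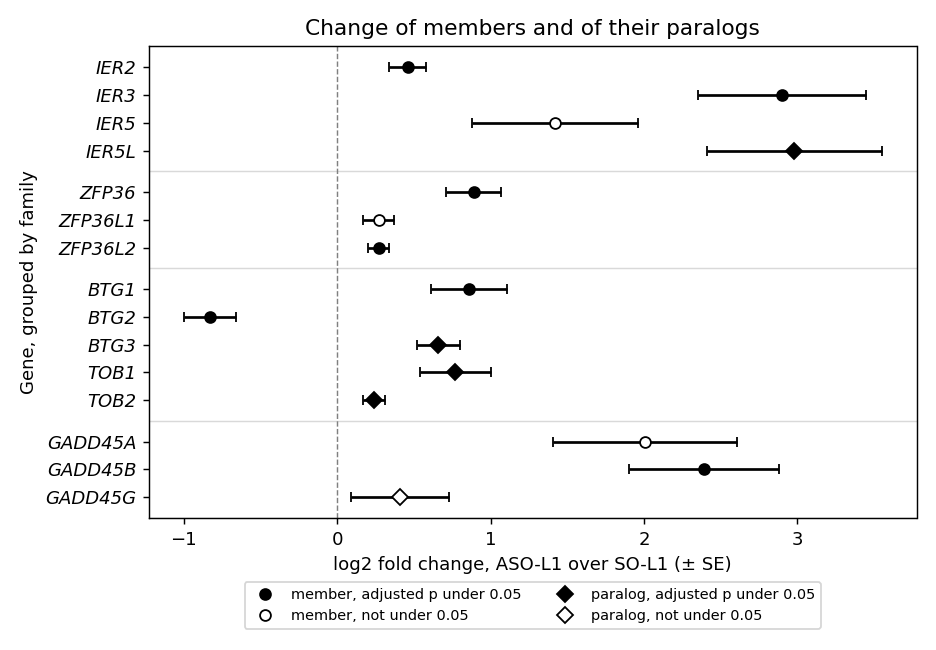
Log2 fold change of ASO-L1 over SO-L1 with its standard error (x) for the members (circles) and their tested paralogs (diamonds), by family (y). Filled symbols have an adjusted p under 0.05, and BTG2 is the single symbol to the left of 0, at -0.83.

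The other short-lived immediate-early genes, such as those of the EGR, FOS and JUN families, serve as the nearest comparison. Over all tested genes 18.0% were called higher, and 23.3% with the block. Of the 27 on this list, 22 rose and none fell (27 higher with the block), with a median log2 fold change of 1.32 and a range of 0.16 to 3.31. The 3 with the smallest p were the transcription factor KLF2 (1.32 ± 0.20, edgeR adjusted p = 0.00271), the MAP kinase phosphatase DUSP1 (1.58 ± 0.23, 0.00337) and EGR2 (3.02 ± 0.49, 0.00369). EGR1 was at 3.31 ± 0.58 (0.00980), and with ASO-L1 library 2 omitted EGR1 was at 2.63 (3.92e-05) and EGR2 at 2.39 (7.82e-05). FOS, at 1.39 ± 0.48, did not pass (0.0742). FOS passed with control library 2 omitted (0.0476), with ASO-L1 library 2 omitted (0.00382, log2 0.73) and with the block (2.05e-05). It also passed with pair 2 dropped (5.71e-09), by DESeq2 (0.0302) and by limma-voom (0.0311). Omitting control library 3 left 12 calls on the list, beside 9.41% of all genes called higher, and EGR1 was not called with pair 3 dropped (0.0550).

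The genes of poly(A) tail removal, the pathway that ZFP36 and BTG proteins act through, moved in both directions. The list called deadenylases here held 14 tested genes of the CCR4-NOT and PAN2-PAN3 complexes and PARN, not all of them catalytic. Of these 4 rose and 2 fell (4 and 4 with the block), with a median of -0.06. Of all genes 33.7% were called in either direction, and 45.7% with the block. CNOT8, a catalytic subunit that BTG proteins bind, rose by 0.54 ± 0.10 (edgeR adjusted p = 0.00455), while PAN3 (-0.76 ± 0.10, 0.00173) and the catalytic CNOT6L (-0.59 ± 0.10, 0.00256) fell. CNOT7, another catalytic subunit, was at 141 ± 4.21 and 145 ± 3.35 CPM and was not called (0.04 ± 0.06, 0.625). Of 9 decapping and 5′ decay genes 5 rose and 1 fell (median 0.18), with the decapping cofactors DCP1A (0.70 ± 0.10, 0.00195), EDC3 (0.57 ± 0.08, 0.00205) and PATL1 (0.42 ± 0.09, 0.00729) higher. The gene that fell was DCP2, from 252 ± 8.52 to 207 ± 16.6 CPM (-0.28 ± 0.07, 0.0129). Omitting control library 1 left 3 deadenylases and 3 decapping genes called, beside 18.6% of all genes. Omitting control library 3 left 3 decapping genes, beside 17.5% of all genes. CNOT7 and DCP2, and TIA1, HSF1, TNF, CSF2, ELK3, MKL1 and MKL2, named further on, were picked after their values were seen.

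Other proteins that bind AU-rich elements or stem-loops showed 4 higher and none lower of 11 (median 0.16), and 5 higher and 1 lower (TIA1, log2 -0.21, adjusted p = 0.0146) with the block. The shares of all genes called were 33.7%, and 45.7% with the block. The RNase ZC3H12A, also called regnase-1, went from 6.46 ± 0.570 to 16.6 ± 6.35 CPM (log2 1.36 ± 0.24, edgeR adjusted p = 0.00486) and PUM2 rose by 0.32 ± 0.07 (0.00889). This list had 2 calls with control library 1 or 3 omitted, beside 18.6% and 17.5% of all genes called. Of 19 transcripts reported as targets of ZFP36 proteins, 11 were tested, and 4 rose and 2 fell (8 and 2 with the block), with a median of 0.58. Among them the cyclin CCND1 fell (-0.57 ± 0.09, 0.00219), and BCL2 (1.51 ± 0.23, 0.00226) and PTGS2 (1.55 ± 0.34, 0.00802) rose from under 1 CPM. The cytokine transcripts that made ZFP36 known were near absent, with TNF at 0.0516 ± 0.0632 and 0.468 ± 0.395 CPM and CSF2 with no read.

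Of 12 GADD45 partners (stress kinases and cell cycle proteins) 1 rose and 1 fell, beside 33.7% of all genes called, with a median of -0.11. The p38 kinase kinase MAP2K6 fell by 0.52 (edgeR adjusted p = 0.00563) and CDK1 rose by 0.23 ± 0.07 (0.0349). MAP3K4, the kinase that GADD45 proteins activate, was at 76.8 ± 3.15 and 67.6 ± 4.63 CPM (-0.18 ± 0.07, 0.0788), and was called lower with the block (0.0422) and with upper-quartile scaling (0.0448). CDKN1A, a cell cycle inhibitor on this list, was at 163 ± 31.2 and 135 ± 22.7 CPM (-0.27 ± 0.16, 0.221), and was called lower with the block (0.00143), unfiltered (0.00469) and with pair 2 dropped (1.68e-04). With the block 1 of these 12 was higher and 3 were lower, beside 45.7% of all genes. CDK1 was not called with control library 1 (0.0583), 2 (0.112) or 3 (0.0798) omitted, with ASO-L1 library 1 omitted (0.0715) or with upper-quartile scaling (0.0790). Each of these omissions left 1 call on the list, beside 17.5% to 30.3% of all genes called.

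Of 13 IER partners 4 rose and 3 fell, and the median was 0.00. The share of all genes called, 33.7%, stands beside this list and the chaperone list below. The PP2A catalytic subunits moved in opposite directions, PPP2CA by 0.28 ± 0.06 (edgeR adjusted p = 0.00802) and PPP2CB by -0.40 ± 0.07 (0.00281). HSF1 itself was at 75.1 ± 1.73 and 77.4 ± 1.46 CPM (0.04 ± 0.06, 0.623). Omitting control library 1 or 3 left 2 calls among IER partners, beside 18.6% and 17.5% of all genes called. Omitting ASO-L1 library 1 left 3 (25.9% of all genes), and omitting ASO-L1 library 3 (31.0%) or scaling by the upper quartile (34.0%) left 4. Of 10 chaperone genes that HSF1 drives, 5 rose and none fell (median 0.24), among them HSPA1B (0.72 ± 0.17, 0.0149) and the co-chaperone BAG3 (0.47 ± 0.12, 0.0146). HSPA1B is nearly identical to HSPA1A, so how their reads were divided is uncertain. Omitting control library 1 left 1 call on the chaperone list (18.6% of all genes called), with BAG3 not passing (0.0731). Omitting control library 3 left 0 (17.5% of all genes), with HSPA1B at 0.0547 and BAG3 at 0.0694.

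Among 13 regulators that act upstream of members 4 rose and none fell (median 0.14), beside 33.7% of all genes called in either direction. The ternary complex factors ELK4 (0.77 ± 0.11, edgeR adjusted p = 0.00173) and ELK1 (0.46 ± 0.10, 0.00625) and their partner SRF (0.30 ± 0.07, 0.00893) rose. The ternary complex factor ELK3 did not pass (0.10 ± 0.12, 0.546), nor did MKL1 (-0.07 ± 0.08, 0.519) and MKL2 (0.09 ± 0.09, 0.433). SRF was not called with control library 3 omitted (0.0507), with pair 1 (0.0946) or 3 (0.0798) dropped or against a 1.2-fold change (0.363). ELK1 was not called with pair 1 dropped (0.0593) or against a 1.2-fold change (0.0633).

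**Figure D5:**
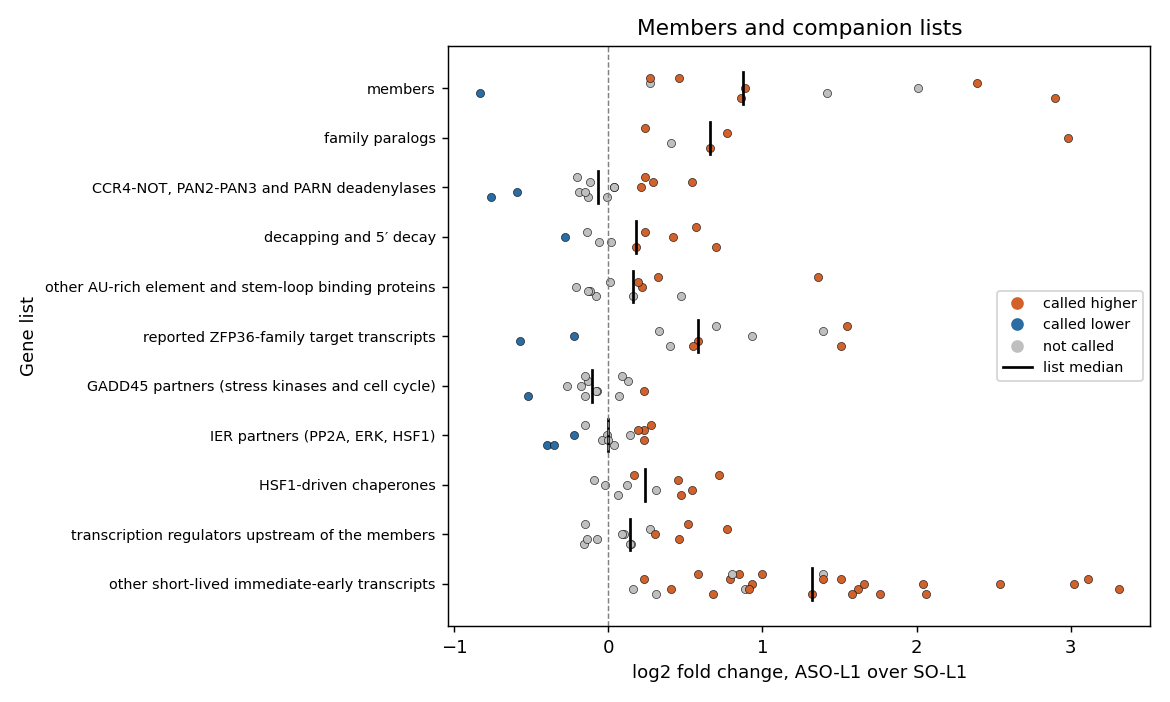
Log2 fold change of ASO-L1 over SO-L1 (x) of each tested gene of the members and the companion lists (y), orange where called higher, blue where called lower, grey where not called, with a bar at the list median. The immediate-early list sits furthest right (median 1.32), the GADD45 partners have 1 orange and 1 blue point, and FOS, MYC and MCL1 appear on 2 lists.

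The authors' deposited table, whose model is not stated, gave the same directions for all 10 members. Of 20964 genes 4493 had an adjusted p under 0.05 in the authors' deposited table. There, in the authors' deposited table, 8 members had an adjusted p under 0.05 and a positive log2 fold change and 1 a negative one. ZFP36L1 was the member that did not pass in the authors' deposited table (log2 0.26, adjusted p = 0.0795), whereas IER5 (1.39, 0.0217) and GADD45A (1.97, 0.00773) passed there. In the deposited batch-corrected log2 values the groups did not overlap for any member, and GADD45A ran from 5.44 to 5.61 in SO-L1 and from 7.37 to 7.51 in ASO-L1. The share of all genes without overlap in those values was not computed. In CPM, without that correction, the groups were already fully separate for 50.9% of tested genes.

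Library totals were 23330875 to 31164287 counts, so that each member had at least 251 counts in each library, and mitochondrial genes took 3.11% to 3.94% of SO-L1 and 3.51% to 3.97% of ASO-L1 counts. The nuclear RNA MALAT1 was at 271 to 322 CPM in SO-L1 and 401 to 427 CPM in ASO-L1. POU5F1, SOX2 and NANOG were expressed in both groups, and of 6 core pluripotency markers 1 was called lower (summed level 3712 to 4024 CPM in SO-L1 and 3177 to 3662 in ASO-L1). Of the naive markers DNMT3L was at 79.9 ± 2.90 and DPPA5 at 34.2 ± 10.4 CPM in SO-L1, but KLF17 was at 0.743 ± 0.196 CPM and ARGFX was too low to test, so those defining markers of the labelled naive state were near 0. Naive markers summed to 327 to 366 CPM in SO-L1 and 271 to 280 in ASO-L1 (2 higher and 5 lower of 9), and primed markers to 273 to 311 and 451 to 533 CPM (4 higher and 1 lower of 6). VIM made up most of that primed rise, at 130 ± 19.2 and 308 ± 45.1 CPM, and the other 5 primed markers summed to 159 and to 168 to 173 CPM. Trophoblast markers summed to 22.5 to 25.9 and 25.1 to 40.2 CPM (1 higher of 5) and fibroblast markers to 610 to 664 and 650 to 690 CPM (1 higher of 7). Blood markers summed to at most 2.46 CPM, with no read of HBB, and neuron markers to 17.7 to 19.8 and 13.7 to 17.9 CPM, with none called in either list. The part of these shifts in the members' differences was not tested.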

How the data were processed

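The members and gene lists were chosen with earlier results of these data known. Poly(A) RNA libraries from a directional kit were deposited as raw read counts per gene symbol, and per the submitters' processing notes the tools were featureCounts, Subread 1.5.0, TopHat2 2.0.13 and Trim Galore 0.4.0, with build hg19. The file title marks duplicates as removed, which can lower the counts of short, abundant transcripts. The method of that removal, the annotation and the strand setting were not given in the sources used here. GENCODE 29 has an antisense gene overlapping each of IER2, IER3 and BTG1, whose reads cannot be told apart without strand, and LINC01619 overlaps BTG1 on the same strand, where strand would not separate them. Per the file headers, the authors also deposited log2 values described as batch-corrected, and a table of log2 fold changes, p-values, adjusted p-values and scores (moderated t and log-odds).

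Counts were tested with edgeR 4.0.16 (filterByExpr, minimum count 10 and total 15, TMM factors, robust quasi-likelihood test, group as the single term), two-sided, with Benjamini-Hochberg adjustment over all 16873 genes. SE is the unshrunken log2 fold change over the square root of F, and CPM are mean ± SD of 3 libraries. The labels do not say that replicates were separate cultures, so p-values measure the spread between these libraries, which may be technical. The script was tested on simulated data. Deviations from the group means correlated at 0.102, 0.377 and 0.211 within replicate numbers 1, 2 and 3, so the numbers were treated as pairs for the replicate block. However, SO-L1 replicate 1 matched ASO-L1 replicate 3 better (0.156), and ASO-L1 replicate 1 matched SO-L1 replicate 3 better (0.162). The pairing of replicate number 1 is therefore uncertain, and calls made with the block rest on it. No 2 libraries of a group agreed within sampling noise (chi-square per degree of freedom 1.97 or more). Named beside the members were all tested paralogs, up to 3 genes a list with the smallest p, and EGR1, FOS, SRF and CDKN1A. One gene and a list tied to it are not reported here. DESeq2 1.42.0, limma-voom (limma 3.58.1), other scalings, filters and left-out libraries were alternatives. 3′ UTRs came from 1 CCDS transcript a gene, the one with the longest 3′ UTR.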

Additional observations from a re-analysis of the deposited data

How the results depend on the processing

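Each member kept its direction in all 17 alternatives. Omitting 1 library at a time gave 2 to 9 members called higher, 0 to 1 called lower, and 2975 to 5322 genes called in all, against 5684 with 6 libraries. Such omissions gave 2 to 4 calls among paralogs, 3 to 6 among deadenylases, 3 to 6 among decapping genes, 2 to 4 among AU-rich element binding proteins, 1 to 2 among GADD45 partners, 2 to 6 among IER partners, 0 to 5 among chaperones, and 12 to 24 among immediate-early genes. Testing against a 1.2-fold change called 3 members higher and 2066 genes in all, with 2 paralogs, 3 deadenylases, 2 decapping genes, 1 AU-rich element binding protein, 3 ZFP36 targets, 1 GADD45 partner, 0 IER partners, 0 chaperones and 1 regulator. Dropping pair 1 left 2 members called higher and 1183 genes in all, with 1 paralog, 3 deadenylases, 2 decapping genes, 1 binding protein, 2 ZFP36 targets, 0 GADD45 partners, 1 IER partner, 0 chaperones and 1 regulator. Dropping pair 3 left 2 members called higher and 2820 genes, with 1 paralog, 3 deadenylases, 3 decapping genes, 2 binding proteins, 0 GADD45 partners, 1 IER partner, 3 chaperones and 13 immediate-early genes. Dropping pair 2 gave 7197 genes in all, with 7 binding proteins, 10 ZFP36 targets, 4 GADD45 partners and 7 regulators. With the replicate block 10 ZFP36 targets and 4 GADD45 partners were called, and among members the block changed the calls of IER5, ZFP36L1 and GADD45A and no other. GADD45G, not called in any of these fits, turned from 0.41 to -0.06 without ASO-L1 library 2 and to -0.05 with pair 2 dropped, and its highest value with 1 library omitted was 0.63. With no filter 2 paralogs and 11 ZFP36 targets were called. Upper-quartile scaling left 4 IER partners called, moved the median of all genes from -0.01 to -0.05, and made 46.1% of calls higher against 53.3%. The cause of these shifts was not tested. With 3 libraries a group, small changes are limited by the spread between libraries, and intervals for sequencing depth alone were not used.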
